A study of Mus musculus with 4 samples.

Results

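The immediate early genes described here are 10 genes that mouse cells switch on quickly after a stimulus: Fos, Fosb, Jun, Junb, Egr1, Atf3, Ier2, Dusp1, Zfp36 and Nr4a1. They were taken by symbol from the authors' deposited tables, and all 10 were found in both, out of 25522 genes in the table without tetracycline and 26085 in the table with it. RNA had been sequenced from crypts of the small intestine, the pits of the gut lining that hold its stem cells, of C57BL/6J mice, all male and 9 weeks old. There were 4 labelled samples, 1 to a group: fed mice and mice fasted for 24 hours, each without tetracycline and after 21 days of this antibiotic. Every group shared the strain, sex, age and crypt isolation, and the control of each fasting comparison was the fed group of the same antibiotic status. The design text describes tetracycline as a means of depleting AKK, an abbreviation left unexpanded there. Crypts were freed by shaking with EDTA and then treated with trypsin to give single cells, per the labels' protocols.

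Immediate early genes are transcribed within minutes of a growth factor, cytokine or stress signal, without new protein synthesis, because the factors at their promoters, such as SRF with its partners and CREB, are already present and are activated by MAP kinases. Their products are mostly transcription factors, among them the Fos and Jun proteins that pair to form AP-1, together with proteins that end the response by removing phosphate from kinases or by degrading short-lived mRNA. In the intestinal epithelium they respond to growth factors, microbial products and injury, and in many tissues they are also known to be induced while the tissue is being dissociated into cells.

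Each deposited table holds the authors' comparison of fasted with fed crypts, with no column per sample. The whole counts behind the deposited means could be recovered and showed 4 libraries per table, 2 fasted and 2 fed. Under the reading of direction given below, table and side assign each of the 8 to the 1 labelled sample of its group. How 2 libraries came from 1 labelled sample is not stated. Whether the 2 of a side came from separate mice is not stated either, so the spread between them may be technical. Library values below are normalised counts, that is counts divided by the authors' size factor, and the numbering within a side puts the larger size factor first. The means summed to 65863261 and 65327199 normalised counts without and with tetracycline, and the largest size factor was 1.172 and 1.747 times the smallest. Fold changes were read as fasted over fed from the word order of the tables' names. Under this reading Pdk4, a kinase that restrains glucose oxidation and is known to rise on fasting, rose by 2.27 (SE 0.38) and 2.90 (SE 0.62) on the log2 scale in the authors' deposited tables. The labels name epithelial cells, and the summed means of Epcam, Vil1, Krt8 and Cdh1 were 401161 in fasted and 473904 in fed crypts without tetracycline. Markers of lymphocytes were also present, and the fed library 1 with tetracycline stood apart by them, with a sum of 60079 normalised counts against 3324 to 19748 in the other libraries.

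Fasting without tetracycline was accompanied by lower Atf3 and Fosb mRNA, and no immediate early gene rose. In the authors' deposited table Atf3 and Fosb, or 2 of the 10 genes, passed an adjusted p under 0.05 (DESeq2's Wald test with Benjamini-Hochberg adjustment) as lower in fasted crypts, where 1.22% of all 18100 genes tested did. None passed as higher, against 1.06% of all genes, and 3 had an unadjusted p under 0.05, the third being Dusp1. With tetracycline the authors' deposited table called only Atf3, beside 0.267% of 17993 genes called lower and 0.333% called higher, and 2 members had an unadjusted p under 0.05. The fold changes of all 10 genes were below 0 in both tables, as were those of 33.6% of the 17571 genes tested in both. Their median log2 change was -0.57 without and -0.68 with tetracycline, beside 0.01 and -0.02 over all genes tested. Without the fed library 1 with tetracycline that median was -0.03, and leaving out 1 library or another turned 3 members above 0 without tetracycline (Fos, Junb and Zfp36) and 5 with it (Junb, Egr1, Ier2, Dusp1 and Zfp36). In RNA from mixed cells, as here, fewer cells of a type and less RNA per cell cannot be told apart.

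**Figure D1:**
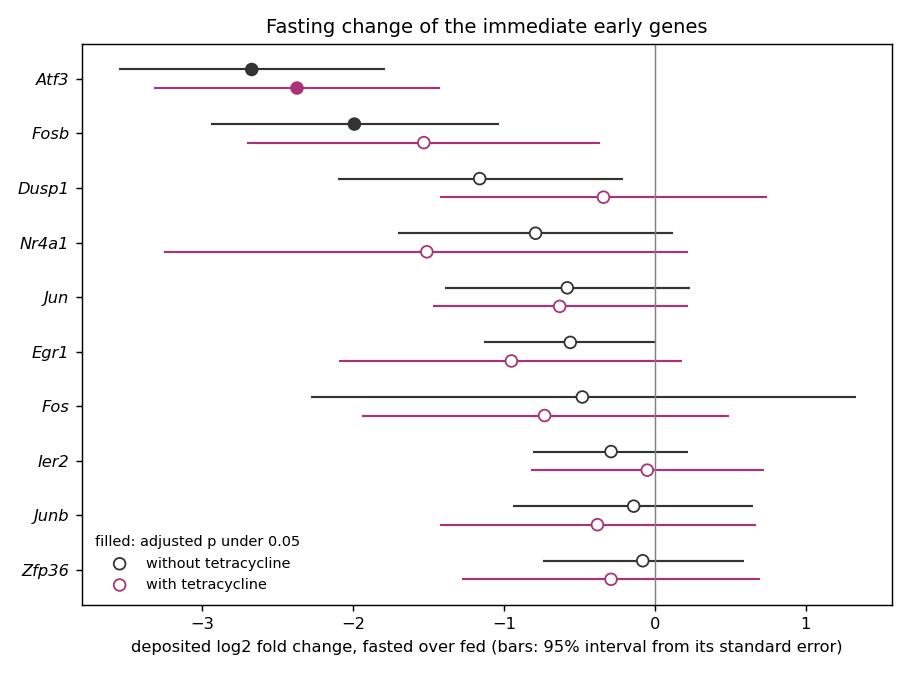
Deposited log2 fold change (fasted over fed, horizontal axis) of each immediate early gene without (black) and with tetracycline (purple), with bars for the 95% interval from its standard error and filled points for an adjusted p under 0.05. All 20 points lie left of 0, and the filled ones are Atf3 in both tables (-2.67 and -2.37) and Fosb without tetracycline (-1.99).

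The promoters of 4 members are shown, those of both called genes (Atf3 and Fosb), of Fos, to which the others are compared, and of Nr4a1, which has the most matches to the motif in capitals. They are taken from RefSeq on GRCm38.p6, the 250 bases before the gene's start in that table, with TGACG (or CGTCA, the same letters on the other strand), the core of the cyclic AMP response element bound by CREB and ATF proteins, in capitals.
Fos, chr12:85473640-85473889, plus strand: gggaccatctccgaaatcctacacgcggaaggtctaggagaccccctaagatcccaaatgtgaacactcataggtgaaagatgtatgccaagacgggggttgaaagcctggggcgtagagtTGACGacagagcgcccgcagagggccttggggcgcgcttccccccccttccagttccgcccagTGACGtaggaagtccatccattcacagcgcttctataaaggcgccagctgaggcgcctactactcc
Fosb, chr7:19310046-19310295, minus strand, the last 6 bases in an annotated exon: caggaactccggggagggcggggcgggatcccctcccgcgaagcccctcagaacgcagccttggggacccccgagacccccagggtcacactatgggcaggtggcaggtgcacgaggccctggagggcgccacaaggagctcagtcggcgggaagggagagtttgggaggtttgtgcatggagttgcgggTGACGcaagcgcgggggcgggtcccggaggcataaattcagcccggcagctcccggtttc
Atf3, chr1:191183334-191183583, minus strand, the last 7 bases in an annotated exon: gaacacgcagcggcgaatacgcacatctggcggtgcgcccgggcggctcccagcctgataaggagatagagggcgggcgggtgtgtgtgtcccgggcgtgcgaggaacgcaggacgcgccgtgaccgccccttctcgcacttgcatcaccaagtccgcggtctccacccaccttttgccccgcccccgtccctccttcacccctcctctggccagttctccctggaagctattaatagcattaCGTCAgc
Nr4a1, chr15:101266596-101266845, plus strand: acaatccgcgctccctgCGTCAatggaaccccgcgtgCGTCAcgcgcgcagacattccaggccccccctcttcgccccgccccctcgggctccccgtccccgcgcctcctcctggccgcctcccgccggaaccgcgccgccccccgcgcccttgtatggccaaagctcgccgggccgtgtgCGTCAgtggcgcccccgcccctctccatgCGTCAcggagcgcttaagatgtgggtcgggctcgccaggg

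Searched on both strands, TGACG was found in 6 of the 8 members with a RefSeq promoter, 1 time in Fosb, Junb and Atf3, 2 times in Fos, 3 times in Dusp1 (2 of them the strands of 1 palindromic TGACGTCA) and 4 times in Nr4a1, and in 17.8% of 32851 promoters of the same length. This motif was chosen after the sequences had been seen. For Atf3, Dusp1, Zfp36 and Nr4a1 the GENCODE gene begins further upstream, so that their windows lie within the annotated gene, before a RefSeq transcript start. In Fos the match nearest the start lies 66 to 62 bases before it, in Fosb 60 to 56, in Atf3 7 to 3 and in Nr4a1 40 to 36. The whole element TGACGTCA, which contains TGACG, was in Dusp1 alone of the 8 and in 1.55% of promoters, and TGACNTCA, which contains TGACGTCA, was in Dusp1 and Jun and in 7.49%. The AP-1 element TGANTCA was in 0 of the 8 and in 6.75% of promoters. The CArG box bound by SRF was in 1 (Zfp36) and in 1.47%. Only these 250 bases were searched, so elements further upstream would be missed, and Egr1 and Ier2 had no sequence to search. GCGNGGGCG, the letters bound by Egr1, was in Fosb, Nr4a1 and Zfp36 and in 4.7% of promoters. The Zfp36 window lies wholly (250 bases) within annotated exons of Zfp36, and 47 bases of the Dusp1 window lie within exons of Dusp1.

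Atf3 encodes a stress-induced factor of the ATF/CREB family that can pair with Jun proteins. Its normalised counts were 579 and 213 in the fasted libraries and 1751 and 3282 in the fed libraries without tetracycline. With tetracycline they were 160 and 278 in the fasted and 1335 and 916 in the fed libraries. Every fed library was thus above every fasted library, within each table and also across both. The change was -2.67 (SE 0.45, 95% interval -3.55 to -1.79, adjusted p = 9.64e-07) in the authors' deposited table without tetracycline, or a 6.35-fold higher level in fed crypts. In the authors' deposited table with tetracycline it was -2.37 (SE 0.49, 95% interval -3.32 to -1.42, adjusted p = 0.000506), or 5.16-fold. Leaving out any 1 library kept the ratio of means between -3.56 and -2.12 without and between -2.82 and -2.02 with tetracycline.

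Fosb, a Fos family member whose protein needs a Jun partner to bind DNA, was the other gene called. It had 172 and 82.8 normalised counts in the fasted libraries and 290 and 723 in the fed libraries without tetracycline. With tetracycline the fasted libraries had 56.8 and 135 and the fed libraries 328 and 221. Fasted and fed libraries did not overlap in either table. The authors' deposited table without tetracycline gave -1.99 (SE 0.49, adjusted p = 0.00416), a 3.96-fold higher level in fed crypts. The authors' deposited table with tetracycline gave -1.53 (SE 0.60, 95% interval -2.70 to -0.36, unadjusted p = 0.0106), which did not pass after adjustment (adjusted p = 0.553). Without the fed library 2 the ratio without tetracycline was -1.18 in place of -1.99. Leaving out any 1 library gave -2.61 to -1.18 without and -2.27 to -1.02 with tetracycline.

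Fos itself, the founding partner of Jun in AP-1, varied more between libraries of a side than between the sides. Fasted libraries without tetracycline had 5587 and 2066 normalised counts, and fed libraries 2937 and 7707. Those with tetracycline had 1084 and 3340 when fasted and 4652 and 2658 when fed. The groups overlapped in both tables: the libraries of a side differed 2.7-fold (fasted) and 2.62-fold (fed) without tetracycline, against a 1.39-fold difference of the side means. The authors' deposited tables gave a change of -0.48 (SE 0.92, adjusted p = 0.947) without and -0.73 (SE 0.62, adjusted p = 0.9999) with tetracycline. The intervals, -2.28 to 1.33 and -1.94 to 0.49, include falls as large as that of Fosb without tetracycline or close to it. Without fasted library 2 or fed library 2 the ratio without tetracycline turned to 0.07 and 0.38. With tetracycline it ran from -1.75 without fasted library 2 to -0.13 without fasted library 1.

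The Jun family, which supplies the other arm of AP-1, did not pass the test in either table. Jun had 4730 and 1926 normalised counts in the fasted and 3717 and 6248 in the fed libraries without tetracycline, and 1895 and 2779 against 4238 and 2983 with it. Its sides overlapped without tetracycline and did not overlap with it, and the authors' deposited tables gave -0.58 (SE 0.41, adjusted p = 0.704) and -0.63 (SE 0.43, adjusted p = 0.9999). Without tetracycline the ratio of Jun ran from -1.37 without fasted library 1 to -0.07 without fasted library 2. Junb, which competes with Jun for the same partners, had 7005 and 3427 in the fasted and 3864 and 7662 in the fed libraries without tetracycline. With tetracycline its values were 3177 and 6898 in the fasted and 8146 and 4926 in the fed libraries. Both sides of Junb spanned nearly the same range without tetracycline, and its deposited changes in the authors' deposited tables were -0.14 (SE 0.40) and -0.38 (SE 0.53).

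**Figure D2:**
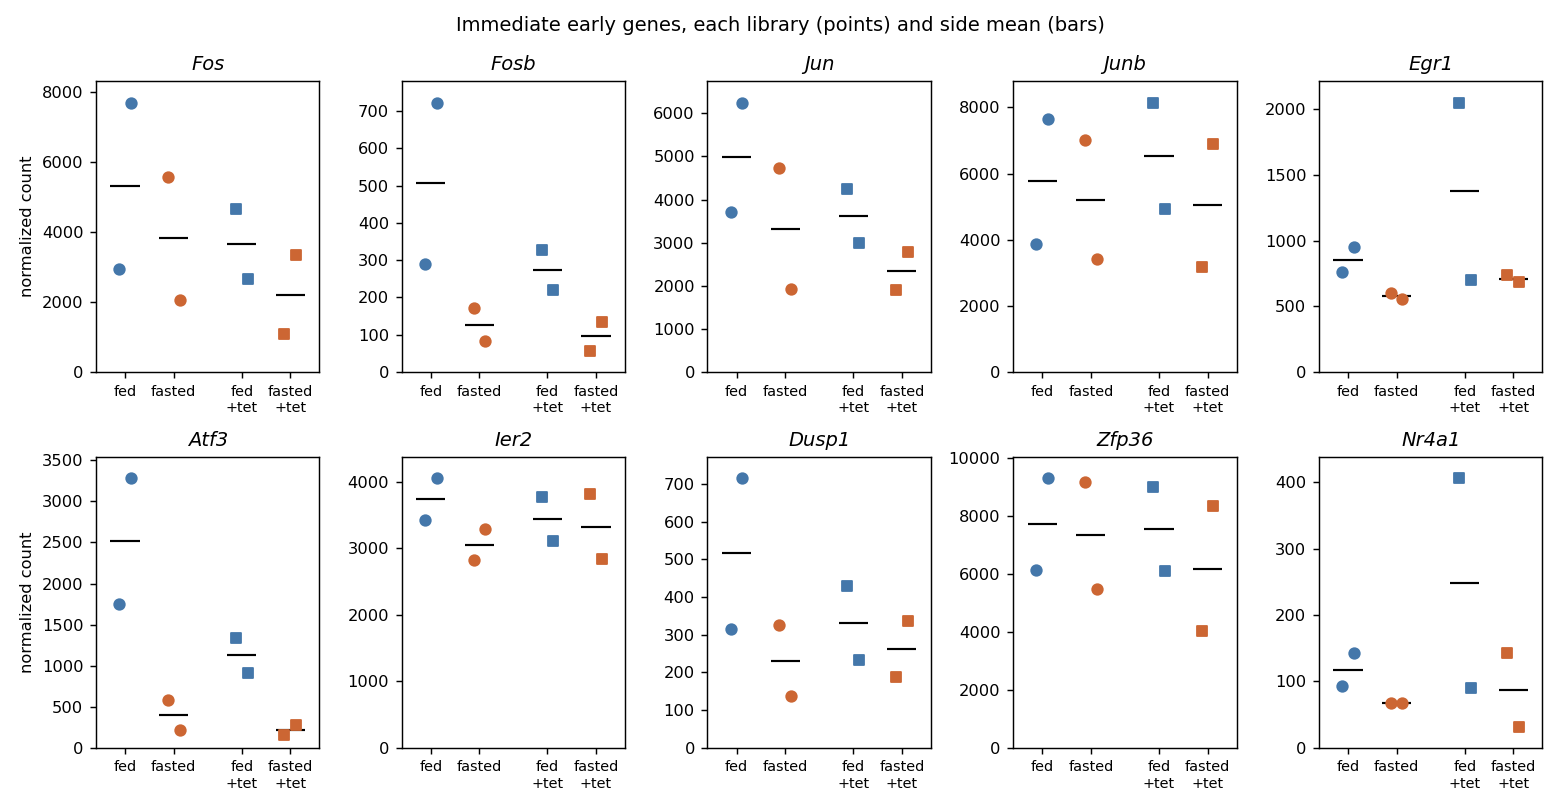
Normalised count (vertical axis, from 0, scaled per gene) of each immediate early gene in the 8 recovered libraries, fed in blue and fasted in orange, with tetracycline (+tet) as squares, and a bar at the mean of each side. The fed and fasted points of Atf3 and Fosb are apart in both tables, while those of Fos, Junb, Dusp1 and Zfp36 overlap.

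Egr1 and Nr4a1 are transcription factors outside AP-1, a zinc finger protein and an orphan nuclear receptor. Egr1 had 601 and 558 normalised counts in the fasted and 757 and 954 in the fed libraries without tetracycline, which did not overlap. With tetracycline the fasted libraries had 736 and 685, and the fed libraries 2049 and 703. Its high mean in fed crypts with tetracycline thus came from the fed library 1, the library with the highest lymphocyte markers. The authors' deposited tables gave -0.56 (SE 0.29, 95% interval -1.13 to 0.00, adjusted p = 0.469) and -0.95 (SE 0.58, adjusted p = 0.9999), and without the fed library 1 the ratio with tetracycline was 0.01. Nr4a1 had 67.9 and 67.8 in the fasted and 93.3 and 142 in the fed libraries without tetracycline, and 142 and 31.6 against 406 and 90.6 with it. It was the most variable member with tetracycline, with libraries 4.47-fold apart when fasted and 4.48-fold when fed. Its deposited changes in the authors' deposited tables were -0.79 (SE 0.46, adjusted p = 0.574) and -1.51 (SE 0.89, adjusted p = 0.9999). The second was -0.07 without the fed library 1 and -2.97 without the fasted library 1.

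Ier2, a small nuclear protein of the early response, had the narrowest spread within a side of the 10 in both tables (pooled SD of 0.165 and 0.256 on the log2 scale). Its normalised counts were 2818 and 3287 in the fasted and 3422 and 4053 in the fed libraries without tetracycline. With tetracycline they were 3813 and 2834 in the fasted and 3776 and 3105 in the fed libraries. Sides were separate by a narrow margin without tetracycline and overlapped with it, and the authors' deposited tables gave -0.29 (SE 0.26, adjusted p = 0.808) and -0.05 (SE 0.39, adjusted p = 0.9999).

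Dusp1 and Zfp36 end the response: Dusp1 is a phosphatase that inactivates MAP kinases, and Zfp36 (tristetraprolin) binds AU-rich elements and brings mRNA to decay. Dusp1 had 325 and 137 normalised counts in the fasted and 316 and 715 in the fed libraries without tetracycline, and 188 and 337 against 430 and 234 with it. Its change in the authors' deposited table without tetracycline, -1.16 (SE 0.48, unadjusted p = 0.0164), did not pass after adjustment (adjusted p = 0.268), and the fasted library 1 lay above the fed library 1. Leaving out 1 library moved this ratio from -1.92 (without fasted library 1) to -0.45 (without fed library 2). With tetracycline the authors' deposited table gave -0.34 (SE 0.55, adjusted p = 0.9999). Zfp36 had 9176 and 5462 in the fasted and 6131 and 9291 in the fed libraries without tetracycline, and 4017 and 8321 against 9006 and 6103 with it. Its sides shared almost the whole range without tetracycline and overlapped in part with it, and the authors' deposited tables gave -0.08 (SE 0.34, adjusted p = 0.983) and -0.29 (SE 0.51, adjusted p = 0.9999).

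Counted over the members, both fasted libraries lay below both fed libraries for 5 genes without tetracycline (Fosb, Egr1, Atf3, Ier2 and Nr4a1), beside 25.8% of the 8069 genes whose mean was 50 to 2000, a range that 5 of the members (Fos, Jun, Junb, Ier2 and Zfp36) exceed. In the tetracycline table this held for 3 genes (Fosb, Jun and Atf3), beside 16.5% of 8194. Atf3 and Fosb were the members in both counts, and the share of all genes in both was not computed.

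Per kilobase of exon, the level in fed crypts without tetracycline was 2505 normalised counts for Junb, 2455 for Ier2, 2263 for Fos and 2222 for Zfp36. Jun followed with 1562 and Atf3 with 1168 per kilobase, then Egr1 with 191, Dusp1 with 156, Fosb with 81.2 and Nr4a1 with 33.3. The first 4 are not in a firm order, since the fed libraries of Fos and Junb differed by 2.62-fold and 1.98-fold. Fasted crypts without tetracycline had 184 per kilobase of Atf3 and 20.5 of Fosb, against 2267 of Junb and 2109 of Zfp36. With tetracycline the fed level per kilobase was 522 for Atf3 and 43.9 for Fosb. Some reads of 4 members cannot be assigned by strand, because the kit does not keep it: 7.28% of the exon bases of Jun, 7.52% of Junb, 3.6% of Zfp36 and 0.332% of Dusp1 are shared with a gene on the other strand, and none of the other 6.

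The second question of the design was whether the fasting change differed with tetracycline. The difference, the change with minus the change without tetracycline, was tested per gene by a two-sided Wald test on the authors' deposited changes and standard errors, adjusted by Benjamini-Hochberg over 17571 genes. It was called for 4 genes (0.0228%) and for 0 of the 10 immediate early genes, of which 0 had an unadjusted p under 0.05, against 1.05% of all genes. Also with the statistic divided by its robust SD of 0.714, the number called was 0. The widest gap was that of Dusp1, 0.82 (SE 0.73, 95% interval -0.62 to 2.25, unadjusted p = 0.264, adjusted p = 1), and Nr4a1 followed with -0.72 (SE 1.0, 95% interval -2.68 to 1.24). For the called genes the difference was 0.30 (SE 0.66, 95% interval -1.0 to 1.59) in Atf3 and 0.46 (SE 0.77, 95% interval -1.05 to 1.97) in Fosb. Both intervals reach about 1 log2 unit or more in either direction, so the call of Fosb in 1 table and not in the other does not show that tetracycline altered its response.

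Levels with and without tetracycline come from tables scaled separately, so they were set side by side with no test, as log2 ratios of side means centred on the median of 21925 genes (0.06 for fed and 0.0644 for fasted crypts). In fed crypts 7 members were lower and 3 higher with tetracycline, with a median of -0.35, and 16.5% of all genes were at or below that median. In fasted crypts 6 were lower and 4 higher, with a median of -0.21, at or below which 26.1% of all genes lay. Atf3 in fed crypts had a mean of 2516 without and 1125 with tetracycline, a centred ratio of -1.22, and its 2 libraries with tetracycline were below both without it. Fosb in fed crypts went from 507 to 274 (-0.94) with overlapping libraries, and in fasted crypts Atf3 went from 396 to 219 (-0.92), also overlapping. Nr4a1 in fed crypts was higher with tetracycline (1.01), a value carried by the fed library 1. Egr1 in fasted crypts was the other value without overlap, from 579 to 710 (0.23). In each feeding group the other 9 members overlapped, and the share of all genes without overlap was not computed.

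Across libraries of a side, most of the immediate early genes varied together. Without tetracycline Fos was higher in fasted library 1 than in fasted library 2 and lower in fed library 1 than in fed library 2, and with tetracycline both orders were the opposite. Fosb, Jun, Junb, Atf3, Dusp1 and Zfp36 had the order of Fos in all 4 pairs of libraries, so 6 of the other 9 members followed it. Of 7702 genes whose mean lay between 50 and 2000 in both tables, 11.3% had this order in all 4 pairs and 20.3% the opposite order. Egr1 and Nr4a1 shared 3 of the 4 pairs and Ier2 shared 2, and in 1 of the pairs counted for Nr4a1 the libraries were nearly tied (67.9 and 67.8). Without tetracycline the gap was wide for most of these genes. The fasted libraries without tetracycline were apart by 1.44 log2 units for Fos and Atf3 and by 1.30 for Jun. The median gap was 0.28 over 5810 genes with a mean of at least 200 (and up to 2000 outside the gene lists). For the fed libraries without tetracycline the gap was 1.39 for Fos, 1.32 for Fosb and 1.18 for Dusp1, beside a median of 0.24. Gaps as wide as that of Fos were seen in 1.58% (fasted) and 0.654% (fed) of these genes. With tetracycline the gaps of Fos, Atf3 and Jun were nearer to those of other genes: 9.21% (fasted) and 12.6% (fed) of 5887 genes were as far apart as Fos, 26% and 23.5% as Atf3, and 40.1% and 25.4% as Jun. Nr4a1 went the other way, with 5.08% (fasted) and 0.713% (fed) of genes as far apart with tetracycline, beside 100% and 11.2% without it. So did Egr1 in fed crypts, at 5.28% beside 35.5%, but not in fasted crypts, at 87.4% beside 78.9%. Nr4a1, with a mean of 92.6 without and 167 with tetracycline, lies below the mean of 200 required of the genes compared.

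As a description over the 8 libraries, on log2(normalised count + 1) centred within each table, Pearson's r with Fos was 0.98 for Junb, 0.97 for Zfp36, 0.92 for Jun, 0.87 for Dusp1 and 0.83 for Fosb. It was lower for Atf3 (0.71), Egr1 (0.57), Nr4a1 (0.21) and Ier2 (-0.03). Fosb and Atf3 were closest to each other (0.97), and Egr1 to Nr4a1 (0.85). Likeness was compared over 7739 genes with a mean of 50 or more in both tables and, outside the gene lists, of 2000 at most. Of these, the non-members most like the mean profile of the 10 were Sertad1 (0.987), BC005624 (0.984), Shkbp1 (0.979), Bbln (0.973) and Mroh7 (0.973). None of these 5 was called in either of the authors' deposited tables. Sertad1 had 1694 and 1037 normalised counts in the fasted and 1859 and 2431 in the fed libraries without tetracycline, and 934 and 1231 against 2013 and 1315 with it. The points share their library, and thus its depth and cell makeup.

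**Figure D3:**
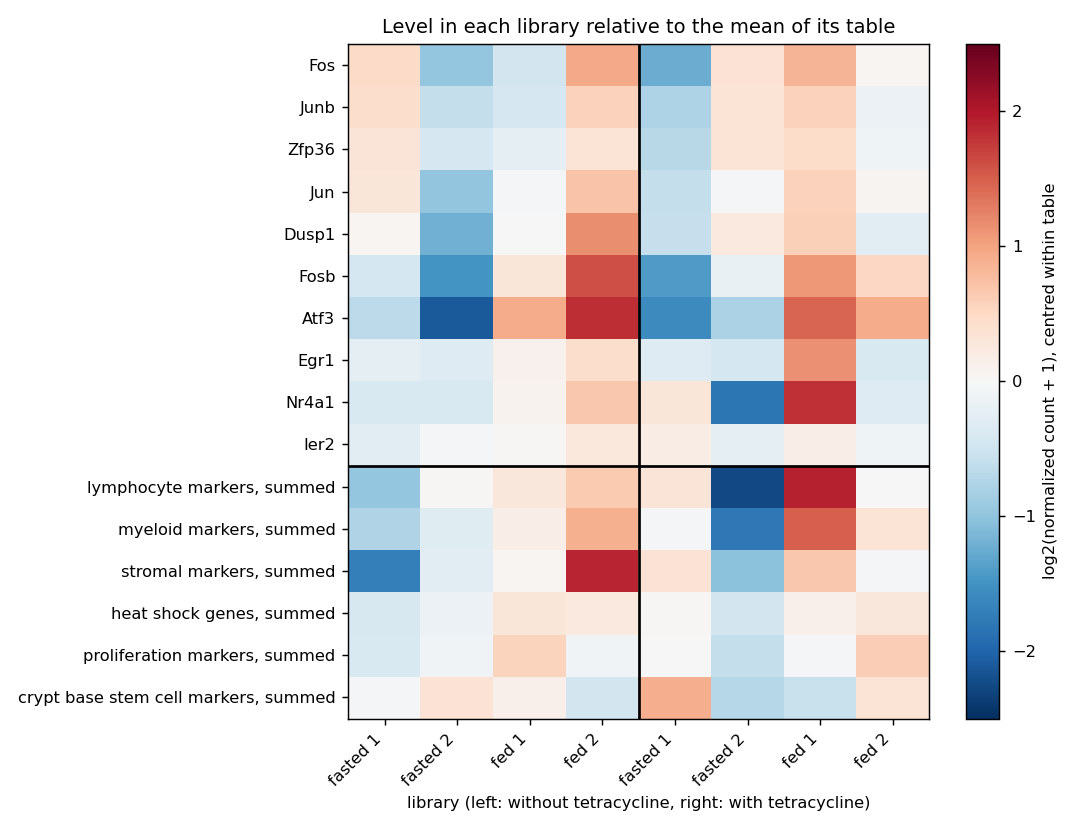
Log2(normalised count + 1) of each immediate early gene (upper rows) and of summed marker lists (lower rows) in the 8 libraries (columns, without tetracycline on the left and with it on the right), shown as the distance from the mean of the 4 libraries of the table. Fos, Junb, Zfp36, Jun, Dusp1, Fosb and Atf3 change together between libraries of a side, the stem cell markers go the opposite way, and Nr4a1 follows the lymphocyte markers.

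Markers of other cells moved with some of these genes. All 9 lymphocyte markers (Ptprc, Cd3e, Cd3g, Cd8a, Cd2, Trac, Cd79a, Ms4a1 and Jchain) had changes below 0 in both of the authors' deposited tables, with 3 called lower without and 0 with tetracycline and medians of -1.01 and -1.63. Their summed normalised counts were 6111 and 12131 in the fasted and 14371 and 18617 in the fed libraries without tetracycline, and 19748 and 3324 against 60079 and 15734 with it; none of the 9 was at 0 in any library. Summed myeloid markers were 998 and 1360 against 1878 and 3127 without, and 1726 and 516 against 5014 and 2273 with tetracycline, with 1 (Lyz2) called lower without it. Stromal markers summed to 134 and 366 against 453 and 1651 without, and 590 and 226 against 736 and 448 with it, with 3 (Col1a1, Col1a2 and Col3a1) called lower without tetracycline. Both erythrocyte markers listed, Hba-a1 and Hbb-bt, were called lower in the authors' deposited table without tetracycline, with a median of -2.88 and summed means of 13660 in fasted and 91884 in fed crypts, and 0 were called with it (median -1.38). Of 4 Paneth cell markers 3 were called higher without tetracycline (Defa24, Mmp7 and Ang4), with a median of 1.22, and 0 with it, at 1.33. Of 5 enterocyte markers 1 (Fabp1) was called higher without tetracycline, and 0 with it, with medians of 0.62 and 0.82. The 5 pancreatic acinar markers had a median of -1.57 without and -0.27 with tetracycline, and 0 were called. The part of these cell markers in the changes of the immediate early genes was not tested.

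Nr4a1 followed the lymphocyte sum over the 8 libraries (Pearson's r = 0.96, Spearman's rho = 0.93, and r = 0.76 without the 2 libraries farthest from the median of the sum), and Egr1 did so less closely (r = 0.77, rho = 0.81, and 0.51 without those 2). With the myeloid sum r was about the same, 0.94 for Nr4a1 and 0.79 for Egr1. Ier2 had r = 0.81 with the lymphocyte and 0.78 with the myeloid sum. These pairings were singled out after their values were seen, from 60 member and list pairs computed, and whether lymphocytes or myeloid cells account for part of the Nr4a1, Egr1 and Ier2 values was not tested. Atf3 had r = 0.49 with the lymphocyte, 0.67 with the myeloid and 0.57 with the stromal sum, and 0.66 with the heat shock genes (0.86 without the 2 libraries farthest from the median of that sum). For Fosb the values were 0.38, 0.58, 0.55 and 0.52. What these relations contribute to the changes of Atf3 and Fosb was not tested. Ier2 went most closely with the stromal sum (r = 0.93, and 0.92 without the 2 farthest libraries).

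The genes that shared the order of Fos ran, to differing degrees, against the crypt base stem cell markers, a relation singled out after its values were seen. Lgr5, Ascl2 and Smoc2 summed to 5269 and 6859 normalised counts in the fasted and 5879 and 3926 in the fed libraries without tetracycline, and to 9384 and 3049 against 3406 and 6358 with it. This sum was in the opposite order to Fos in all 4 pairs, as were the summed proliferation markers and heat shock genes. Between the sides, however, all 4 proliferation markers had changes below 0 in both of the authors' deposited tables, with medians of -0.49 and -0.54, and 0 were called. Pearson's r with the stem cell sum was -0.92 for Zfp36, -0.88 for Junb and -0.86 for Fos, and -0.87, -0.87 and -0.86 without the 2 libraries farthest from its median. It was less negative for Dusp1 (-0.75), Jun (-0.68), Fosb (-0.65) and Atf3 (-0.49). The fourth stem cell marker, Olfm4, was too abundant for its library counts to be recovered, and its change was -0.46 and -0.51 in the authors' deposited tables, below 0 where those of Lgr5, Ascl2 and Smoc2 were above 0. The 6 heat shock genes with library counts, of a group also known to rise on dissociation, summed to 9184 and 11075 in the fasted and 15041 and 14448 in the fed libraries without tetracycline, and to 12385 and 8878 against 13342 and 14856 with it. Within this list the genes differed. Hspe1 and Hsph1 were in the opposite order to Fos in all 4 pairs. Dnajb1 had the order of Fos in all 4 pairs, and Hspa1a, Hspa1b and Hspb1 had it in most. The part of cell makeup, proliferation or handling in the library pattern of the immediate early genes was not tested.

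**Figure D4:**
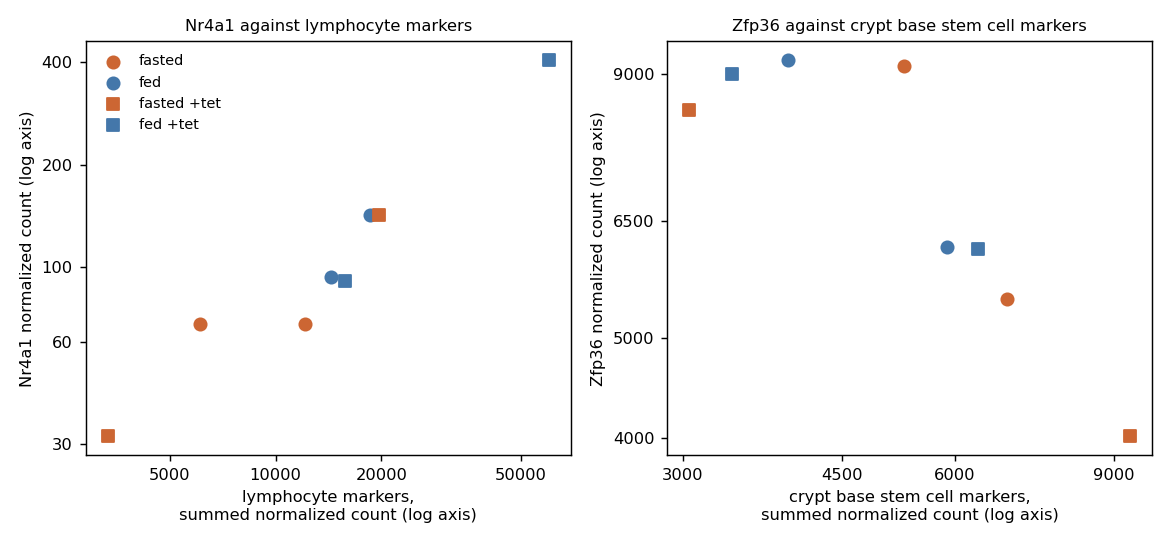
Normalised count of Nr4a1 against summed lymphocyte markers (left) and of Zfp36 against summed crypt base stem cell markers (right), both on log axes, with 1 point for each of the 8 libraries, fed in blue, fasted in orange, and with tetracycline (+tet) as squares. Nr4a1 is highest, at 406, in the library with the highest lymphocyte sum of 60079, and Zfp36 is lowest, at 4017, in the library with the highest stem cell sum of 9384.

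Related genes of the same response were mostly not called. None of the 12 other AP-1 and ATF family genes tested was called in either of the authors' deposited tables, and their median change was -0.06 without and -0.21 with tetracycline. Of those with a mean of at least 50 in both tables, Batf and Batf2 had the widest change, -1.29 (SE 0.59) and -0.74 (SE 0.39) in the authors' deposited table without tetracycline. Fosl1, a Fos family member of lower level, named after its values were seen, had 3.67 and 4.3 normalised counts in the fasted and 25.8 and 30.1 in the fed libraries without tetracycline, and 11.5 and 4.13 against 34.6 and 36.7 with it. Its sides did not overlap in either table, and the authors' deposited tables gave -2.81 (adjusted p = 0.132) and -2.14 (adjusted p = 0.794), which did not pass. Of 37 other early response genes tested without tetracycline, 2 rose and 1 fell, with a median of -0.06, and of 36 tested with it 0 passed, with a median of -0.35. In the authors' deposited table those that rose were Socs3, a feedback inhibitor of cytokine signalling, by 2.0 (SE 0.38, adjusted p = 3.96e-05) and Per1, a clock gene that responds to glucocorticoids, by 1.31 (SE 0.25, adjusted p = 4.82e-05). Trib1, a pseudokinase, fell by 1.0 in that table (SE 0.29, adjusted p = 0.0346).

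Socs3 had 2502 and 1166 normalised counts in the fasted and 394 and 526 in the fed libraries without tetracycline, a separation in the opposite direction to Atf3. With tetracycline it had 501 and 790 against 1057 and 600, and its difference between the tables was -2.36 (SE 0.63, unadjusted p = 0.000169), which did not pass after adjustment (adjusted p = 0.269). Among 14 feedback phosphatases, Sprouty proteins and decay factors other than Dusp1 and Zfp36, only Dusp10, a phosphatase of the stress kinases, was called, in the table without tetracycline. Its normalised counts were 142 and 139 in the fasted and 429 and 628 in the fed libraries without tetracycline, and 165 and 86.7 against 546 and 212 with it. The authors' deposited tables gave -1.91 (SE 0.34, adjusted p = 8.01e-06) and -1.59 (SE 0.63, adjusted p = 0.583), so that Dusp10 did not overlap between sides in either table, as Atf3 and Fosb did not.

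Among genes that feed the response, none of 25 genes of the MAP kinases, SRF and CREB was called in either of the authors' deposited tables, with medians of -0.07 and -0.06. Without tetracycline the widest of those with a mean of at least 50 in both tables, Mrtfb and Braf, were each at 0.64 (SE 0.27 and 0.29) in the authors' deposited table. With tetracycline Elk3, named after its values were seen, was at -1.56 (SE 0.81) in the authors' deposited table. Of 9 EGF family ligands and receptors tested, the authors' deposited table without tetracycline called Erbb3 higher, by 1.05 (SE 0.25, adjusted p = 0.00285), and 0 were called with it. The 10 heat shock genes had medians of -0.46 without and -0.51 with tetracycline, and 8 of them were below 0 in each table. Of these 0 were called without tetracycline, and with it the authors' deposited table called Hspa1a lower, at -3.06 (SE 0.84, adjusted p = 0.0447), from low library values of 14 and 5.5 against 113 and 53.9.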

How the data were processed

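RNA from crypts of 4 labelled groups was measured. Per the submitters' processing notes, Salmon, DESeq2 and mm10 were used, with no versions or order stated. Per the file headers, the authors deposited per gene a mean normalised count (a signal), a log2 fold change with its standard error, a test statistic (a score equal to the change over its error) and p-values with a Benjamini-Hochberg adjustment; the statistic and the adjustment were recomputed and matched. The design had allowed for values per library, but the tables hold comparisons, so the authors' adjusted p under 0.05 served as the call.

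Whole counts per library were recovered from mean, fold change and standard error (Python 3.11.15, numpy 2.4.6, pandas 2.3.3, scipy 1.17.1), for all genes with a mean of 50 to 2000 and listed genes to 10000. A single set of counts was found for 99.93% of 8148 and 99.73% of 8287 genes, and the method was tested on simulated data. Size factors were 0.9299 to 1.0902 without and 0.7268 to 1.2699 with tetracycline. Libraries are given as single values without a count model. Precision is that of the authors' standard errors, with a median of 0.336 and 0.492 over tested genes.

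The named genes are all 10 members, the called genes of the other lists (or, in a pathway list with none, the 2 with the widest change among those with a mean of at least 50 in both tables), and the 5 non-members most like the members' mean profile. Members and lists were chosen with earlier results of these data known. Exon lengths and overlaps come from GENCODE mouse release M21 on GRCm38; 99.3% and 99.2% of the gene identifiers matched it without their version and 0.0509% and 0.0498% with it, so the authors' annotation release differed. Promoters were matched by symbol in RefSeq, for 8 of the 10. Alternatives were other thresholds, a mean minimum of 50, a pseudocount of 1, another centring and leaving out each library. A lymphocyte marker of the original list is not reported here and was left out of the list's values. There were 0 unused columns per sample.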

Additional observations from a re-analysis of the deposited data

How the results depend on the processing

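No paired analysis was possible because the labels give 1 sample per group and no replicate numbers, and the deposited comparisons have no sample columns. The numbers of members called, 2 without and 1 with tetracycline and 0 for the difference, were the same at thresholds of 0.01 (not run for the difference) and 0.1 and over genes with a mean of at least 50. Over the members, 112 alternative values stayed within the spread between libraries, 72 from leaving out a library and 40 from other settings. Another 8, all from leaving out a library, did not. The value left after dropping a library is judged by the spread of the same libraries, and turns of sign such as that of Fos counted as within it. These counts therefore do not show that the values are stable. Leaving out each library in turn gave a median over the members of -1.08 to -0.28 without and -0.97 to -0.03 with tetracycline, the last without the fed library 1, beside -0.57 and -0.68. Without tetracycline 7 members stayed below 0 throughout and Fos, Junb and Zfp36 turned, reaching 0.38, 0.43 and 0.26. With it 5 stayed below 0, and Junb, Egr1, Ier2, Dusp1 and Zfp36 turned, reaching 0.08, 0.01, 0.15, 0.17 and 0.14. Leaving out a library gives a value with no test. The direction of every change depends on the reading of the tables' names, and 2 libraries per side limit the precision.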
